A study of Mus musculus with 18 samples.

Results

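Glutathione transferases join the tripeptide glutathione to reactive compounds. Members of the family studied here were GSTM1, GSTM3 and GSTM5 of the mu class, GSTA4 of the alpha class, GSTO1 of the omega class, GSTP1 of the pi class, GSTT1 of the theta class, and the microsomal transferases MGST1, MGST2 and MGST3. They are 10 of the 25629 rows of each of 2 gene tables and were found there by name. The set was selected on measured values, the higher levels of GSTM1, GSTM3 and MGST2 after irradiation in culture. That choice does not say which cultures were meant. Irradiation in cultures without DL1 is therefore described without a test, and so are the values of these 3 genes for irradiation in cultures with DL1.

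RNA had been sequenced from LSK cells (lineage-negative, cKit+, Sca1+), the bone marrow fraction that holds stem cells and multipotent progenitors, of C57Bl/6 mice, in 18 libraries that form 6 groups of 3. Control mice were normal, and irradiated mice had received 2.5 Gy from a Cs-137 source and had recovered for at least 9 weeks. Freshly sorted control and irradiated cells were pooled from 3 mice per library. The other 4 groups were cultures of 200 LSK cells of 1 mouse, grown for 6 days with the cytokines hIL-6, hIL-11, hFlt3L and mSCF and sorted again for the LSK phenotype, from control or irradiated mice, with or without DL1. DL1 is not spelled out in the labels and is the usual abbreviation of the Notch ligand Delta-like 1; how it was presented to the cells is not given in the sources used here. All cultured groups share the 4 cytokines.

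Sort markers were present throughout. All 10 genes of an LSK and stem cell list were above 0 FPKM in at least 1 library of every group. By that measure all 9 genes of an erythroid list were present too. A mean of at least 1 FPKM was reached by 8 of the 10 LSK genes over the cultured libraries and by all 10 over the fresh ones. Mean KIT was between 34.9 and 39.0 FPKM in the cultured groups and 106 and 112 FPKM in the fresh groups. FPKM correct the number of fragments for transcript length and for library size, so levels can be set side by side between genes. The cultured and fresh tables were normalized separately, and levels set across them are given without a test. Relative sequencing depth, read from the steps of low values, was between 0.756 and 1.09 of the first control culture, except 0.488 in irradiated replicate 2 with DL1, and between 0.644 and 1 of the first control among fresh libraries.

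Glutathione conjugation makes electrophiles water-soluble, and the conjugates are then exported from the cell. The cytosolic classes act on different substrates, while the microsomal members sit in membranes and belong to a separate protein family that also makes leukotrienes. In blood-forming cells glutathione is a main buffer against oxidants, and transcription factor Nrf2 (NFE2L2) controls many transferase genes through antioxidant response elements.

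The 4 members shown next had all irradiated cultures above all control cultures, with and without DL1. Their promoter windows are given so that antioxidant response elements can be looked for beside the measurements, 1 window per member. Each is the 250 bases before a RefSeq start site in build GRCm38.p6, written 5′ to 3′ on the strand of the gene, and capitals mark every match to 1 of 4 motifs. The motifs were searched on both strands: the antioxidant response element TGACNNNGC, the C/EBP motif TTGCNNAA, the RBPJ motif TGGGAA (RBPJ is the DNA-binding factor of Notch signalling) and the TATA box TATAAA.
GSTM1, start site 2, chr3:108017819-108018068, minus strand: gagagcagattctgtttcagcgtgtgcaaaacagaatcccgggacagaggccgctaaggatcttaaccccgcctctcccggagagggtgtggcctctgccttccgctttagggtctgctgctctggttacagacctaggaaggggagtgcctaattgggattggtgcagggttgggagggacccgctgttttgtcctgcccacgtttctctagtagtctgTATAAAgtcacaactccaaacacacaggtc
GSTM3, chr3:107969175-107969424, minus strand: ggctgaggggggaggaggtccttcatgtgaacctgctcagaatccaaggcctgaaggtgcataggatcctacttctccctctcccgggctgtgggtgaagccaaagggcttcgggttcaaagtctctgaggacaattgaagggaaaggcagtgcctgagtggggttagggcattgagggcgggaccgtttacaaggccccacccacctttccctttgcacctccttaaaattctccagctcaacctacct
MGST1, start site 1, chr6:138140277-138140526, plus strand: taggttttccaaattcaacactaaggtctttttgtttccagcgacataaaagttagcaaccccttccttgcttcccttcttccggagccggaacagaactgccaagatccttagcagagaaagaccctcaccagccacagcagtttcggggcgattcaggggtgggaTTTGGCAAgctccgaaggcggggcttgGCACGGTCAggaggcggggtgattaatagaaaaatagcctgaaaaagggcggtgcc
MGST2, chr3:51660929-51661178, plus strand: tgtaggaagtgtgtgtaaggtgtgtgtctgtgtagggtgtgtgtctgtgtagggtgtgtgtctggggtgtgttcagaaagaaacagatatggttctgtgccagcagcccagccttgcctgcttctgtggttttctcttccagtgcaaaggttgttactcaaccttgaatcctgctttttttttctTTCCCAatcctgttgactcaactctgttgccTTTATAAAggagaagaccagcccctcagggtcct

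GSTM1 had a TATA box 30 bases before its start site 2. The GSTM3 window held none of the 4 motifs. In MGST1 an antioxidant response element lay 56 bases and a C/EBP match 83 bases before start site 1, each on the opposite strand. MGST2 had an RBPJ match 65 bases upstream on the opposite strand and a TATA box at 32 bases, which overlaps a second match on the opposite strand. Of 32851 promoters searched in the same way, 10.2% held the antioxidant response element, 9.56% the C/EBP motif, 21.6% the RBPJ motif and 12.4% the TATA box. Windows were found for 9 of the 10 members, 11 in all. The windows of GSTM1 start site 1 and MGST1 start site 2, not shown, held none of the 4 motifs. Outside the 4 shown, GSTM5 had an antioxidant response element at 42 bases and GSTT1 a C/EBP match at 39 bases. A match is a description of letters, not of a bound site.

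GSTM1 conjugates a wide range of electrophiles and was among the 3 most abundant members in every group. In control cultures its level was 118, 109.6 and 92.6 FPKM, and in irradiated cultures 209.5, 237 and 206 FPKM. With DL1 the control cultures held 58.6, 63.4 and 57.9 FPKM and the irradiated cultures 100.1, 110.4 and 95.4 FPKM. Irradiated cultures without DL1 were thus the highest and control cultures with DL1 the lowest, while control cultures without DL1 and irradiated cultures with DL1 overlapped. Freshly sorted control cells held 94.99, 105 and 112 FPKM and irradiated cells 124, 129 and 129.9 FPKM. The fresh groups did not overlap.

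GSTM3, of the same class, was far less abundant and followed the same order of groups. Its levels were 6.62, 7.92 and 6.34 FPKM in control cultures and 13.2, 14.2 and 13.0 FPKM in irradiated cultures. With DL1 they were 4.05, 3.95 and 3.80 FPKM in control and 5.36, 5.97 and 5.27 FPKM in irradiated cultures. None of the 4 cultured groups overlapped for GSTM3: irradiated cultures were highest, then control cultures, then irradiated cultures with DL1, then control cultures with DL1. Fresh cells held 8.06, 7.84 and 8.11 FPKM in the control and 10.9, 9.51 and 10.1 FPKM in the irradiated group, again without overlap.

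Some reads of these genes may not be separable. In the GENCODE M21 transcripts, 23.1% of the 50-base windows of GSTM1 and 28.8% of those of GSTM3 also occur in another gene, for GSTM1 most often in the pseudogene GSTM2-PS1 and for GSTM3 in GM8834. How the authors assigned shared reads is not given in the sources used here. GSTM1 stood between 13.8 and 18.7 times above GSTM3 in the cultured libraries. No window of GSTM5, GSTA4, GSTO1, GSTT1, MGST1, MGST2 or MGST3 was shared.

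GSTM5 was the member of the mu class with a different pattern. It held 3.46, 2.74 and 2.52 FPKM in control cultures, 3.52, 3.54 and 3.24 FPKM in irradiated cultures, 1.54, 1.62 and 0.916 FPKM in control cultures with DL1 and 1.58, 1.55 and 1.36 FPKM in irradiated cultures with DL1. Control and irradiated cultures overlapped both with and without DL1, and every culture with DL1 lay below every culture without it. Fresh cells held 17.2, 15.8 and 20.0 FPKM in the control and 14.8, 20.5 and 22.4 FPKM in the irradiated group, levels above those of every cultured library in a separately normalized table.

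MGST1, a microsomal transferase that also reduces lipid hydroperoxides, had the same order of cultured groups as GSTM3, with no overlap between any of the 4. Control cultures held 45.4, 46.2 and 47.4 FPKM and irradiated cultures 76.3, 69.1 and 64.5 FPKM. With DL1 the control cultures held 23.3, 27.6 and 23.4 FPKM and the irradiated cultures 40.4, 42.5 and 34.3 FPKM. In fresh cells the groups overlapped, at 13.0, 22.5 and 19.9 FPKM in the control and 13.4, 18.8 and 18.8 FPKM in the irradiated group.

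MGST2, which can also join glutathione to leukotriene A4 to make leukotriene C4, was high in irradiated cultures with and without DL1. Its levels were 35.6, 34.7 and 32.8 FPKM in control cultures and 30.7, 35.3 and 37.1 FPKM in control cultures with DL1, which overlapped. Irradiated cultures held 63.8, 75.0 and 63.1 FPKM without DL1 and 60.2, 62.3 and 50.2 FPKM with it, all above every control culture. Fresh cells held 16.8, 16.3 and 9.97 FPKM in the control and 14.5, 13.2 and 17.9 FPKM in the irradiated group, with overlap. MGST3, the remaining microsomal member, lay between 6.99 and 13.6 FPKM in all cultured libraries and between 4.43 and 7.84 FPKM in the fresh ones, and neighbouring groups in the order of means overlapped in both tables.

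GSTO1, which reduces dehydroascorbate and arsenic compounds, and GSTP1, a conjugating enzyme that also binds the kinase JNK, were abundant, and their groups differed by small amounts. GSTO1 held 102, 107 and 101 FPKM in control, 113, 111 and 117 FPKM in irradiated, 122, 119.6 and 118 FPKM in control cultures with DL1, and 124, 118 and 123 FPKM in irradiated cultures with DL1. Its control cultures were the lowest and its irradiated cultures next, while the groups with DL1 overlapped at the top. GSTP1 lay between 46.6 and 65.0 FPKM in the 12 cultured libraries, and neighbouring groups in the order of means overlapped. For GSTP1, 62.3% of the 50-base windows also occur in GSTP2, so the pair may share reads; GSTP1 was between 2.16 and 2.34 times GSTP2 in the cultured libraries. In the fresh libraries GSTO1 lay between 47.7 and 53.1 FPKM and GSTP1 between 47.2 and 60.4 FPKM.

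GSTA4, which conjugates the lipid peroxidation product hydroxynonenal, and GSTT1, which acts on small halogenated compounds, were low in culture. GSTA4 lay between 0.284 and 1.35 FPKM and GSTT1 between 0.668 and 1.63 FPKM in the cultured libraries. The corresponding fresh levels were 10.6 to 17.4 FPKM for GSTA4 and 3.01 to 4.57 FPKM for GSTT1. A filter of a mean of at least 1 FPKM over the libraries of a table left 9 of the 10 members to be tested in culture, without GSTA4, and all 10 in the fresh table.

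**Figure D1:**
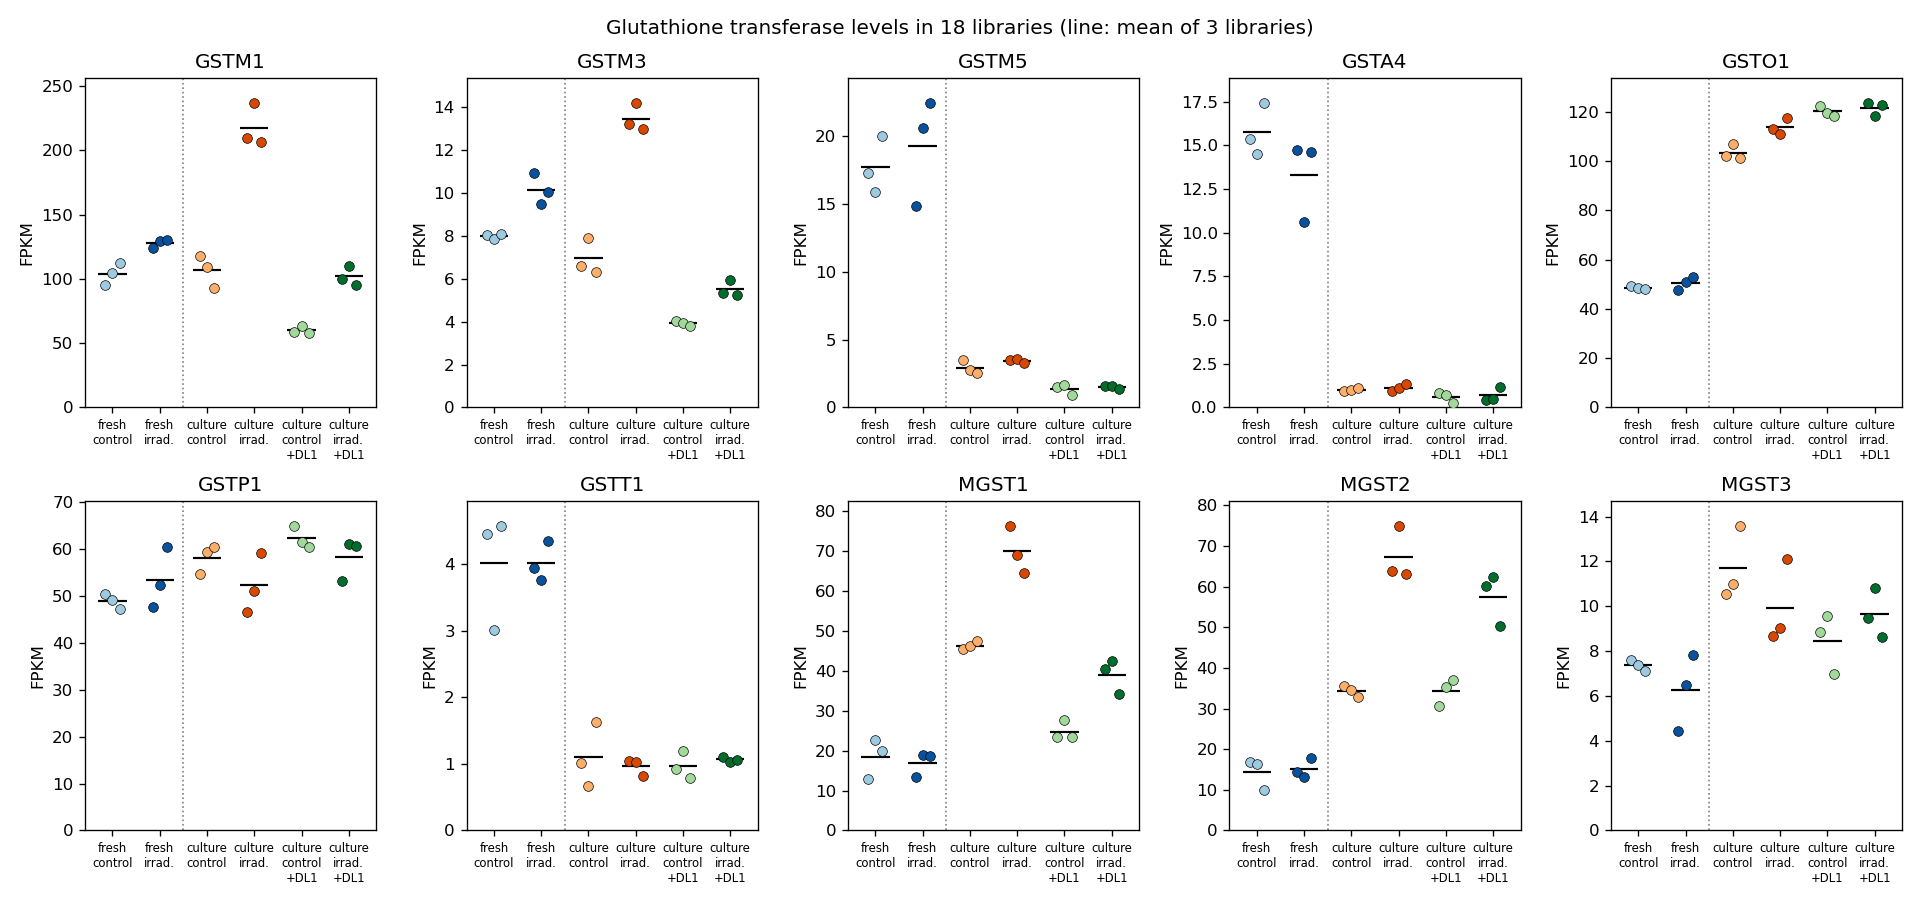
Level of each of the 10 transferases in FPKM (vertical axes, each starting at 0) in every library (points) with the mean of the 3 libraries of a group (horizontal lines), for the 2 fresh groups left and the 4 cultured groups right of the dotted line. Among cultures, GSTM1, GSTM3 and MGST1 are highest in irradiated cultures without DL1 and lowest in control cultures with DL1, MGST2 is high in irradiated cultures with and without DL1, and GSTA4 and GSTM5 are highest in fresh cells.

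Without DL1, mean GSTM1 was 2.04 times its control level (218 ± 16.9 against 107 ± 13.0 FPKM; SD, n = 3 each), GSTM3 1.94 times, MGST2 1.96 times and MGST1 1.51 times. These ratios are a description, because GSTM1, GSTM3 and MGST2 may have been chosen on them. MGST1 was not named in the choice. On the log2(FPKM + 1) scale used for all fits, which understates changes of low genes, the differences were 1.02 ± 0.088 (SE) for GSTM1, 0.87 ± 0.076 for GSTM3, 0.95 ± 0.093 for MGST2, 0.58 ± 0.087 for MGST1, 0.14 ± 0.041 for GSTO1, 0.19 ± 0.12 for GSTM5, -0.16 ± 0.082 for GSTP1, -0.076 ± 0.14 for GSTT1 and -0.22 ± 0.14 for MGST3. All irradiated libraries lay above all control libraries for GSTM1, GSTM3 and MGST2, which were chosen for rising in culture, so this supports nothing. Of the tested members that the choice did not name, GSTO1 and MGST1 separated in the same way, beside 17.6% of the 12011 genes tested. GSTM5, GSTP1, GSTT1 and MGST3 overlapped. No member past the filter had all irradiated libraries below the control libraries, beside 20.6% of genes.

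With DL1, irradiated cultures again held more RNA of the same 4 transferases than control cultures. MGST1, which was not named in the choice of the set, rose 1.57-fold (39.0 ± 4.27 against 24.8 ± 2.46 FPKM; SD, n = 3 each), a log2 difference of 0.63 ± 0.087 (SE, adjusted p = 0.00448, limma with Benjamini-Hochberg adjustment over 12011 genes). As a description, because the choice may have used them, mean GSTM1 was 1.70 times its control level (102 ± 7.71 against 60.0 ± 3.00 FPKM; SD, n = 3 each), MGST2 1.68 times (57.6 ± 6.46 against 34.3 ± 3.30 FPKM) and GSTM3 1.41 times (5.53 ± 0.38 against 3.93 ± 0.13 FPKM). Of the tested members that the choice did not name, MGST1 alone had all 3 irradiated libraries above all 3 control libraries, beside 15.6% of all genes. For no member were they all below, beside 17.5%. They were also all above for GSTM1, MGST2 and GSTM3, which may have been chosen for that rise. Their log2 differences were 0.75 ± 0.088 (SE) for GSTM1, 0.73 ± 0.093 for MGST2 and 0.40 ± 0.076 for GSTM3. Of the 6 members tested that the choice did not name, 1 rose and 0 fell, beside 2.51% of all genes tested called higher and 0.649% called lower, 3.16% in all.

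The other 5 members did not pass: GSTM5 at 0.094 ± 0.12 (SE), GSTO1 at 0.017 ± 0.041, GSTP1 at -0.095 ± 0.082, GSTT1 at 0.076 ± 0.14 and MGST3 at 0.18 ± 0.14, with limma adjusted p between 0.517 and 0.844. The call of MGST1 was kept when any 1 of the 6 libraries was left out, with limma adjusted p up to 0.0299. In these bulk libraries a change in the share of cells of a type and a change of RNA per cell cannot be told apart.

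Set beside the change without DL1, with no test because of how the set was chosen, the log2 difference with DL1 was lower by 0.27 ± 0.12 (SE) for GSTM1, by 0.46 ± 0.11 for GSTM3 and by 0.22 ± 0.13 for MGST2. For MGST1 it was higher by 0.052 ± 0.12, and for MGST3 by 0.40 ± 0.19, from -0.22 without DL1 to 0.18 with it. The remaining members stood at -0.12 ± 0.057 for GSTO1, -0.095 ± 0.17 for GSTM5, 0.15 ± 0.20 for GSTT1 and 0.062 ± 0.12 for GSTP1.

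Markers of several blood cell types differed between these groups. Their counts for irradiation with DL1 stand beside 2.51% of all genes called higher and 0.649% called lower. The summed level of 11 neutrophil and granulocyte progenitor genes, all 11 found, was 3181 to 3338 FPKM in control and 4890 to 6172 FPKM in irradiated cultures with DL1, and 8 of the 10 tested rose while 0 fell. Without DL1 the sums were 4376 to 5024 FPKM and 7933 to 10420 FPKM. A macrophage list, with 10 of 11 genes found, summed to 151.6 to 173.5 FPKM in control and 230.1 to 239.1 FPKM in irradiated cultures with DL1, where MARCO was at 0 in all libraries and 4 of 9 genes tested rose. Without DL1 the macrophage sums were 398.3 to 635.1 FPKM in control and 953 to 1521 FPKM in irradiated cultures. The LSK list summed to 959.3 to 978.8 FPKM in control and 858.6 to 892 FPKM in irradiated cultures with DL1, where 2 of 8 genes tested fell, CD34 (-0.41 ± 0.067, SE, adjusted p = 0.00792, limma) and MEIS1 (-0.39 ± 0.085, adjusted p = 0.0309), and 0 rose.

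Megakaryocyte genes differed in opposite directions in the 2 kinds of culture. With DL1 the list, 7 of 8 genes found, summed to 112.9 to 116.5 FPKM in control and 77.53 to 98.78 FPKM in irradiated cultures, and 0 of 4 tested passed. Without DL1 the sums were 81.43 to 109 FPKM in control and 199.5 to 277.3 FPKM in irradiated cultures. A mast cell and basophil list, all 9 genes found, summed to 100.3 to 215.8 FPKM in control and 141.9 to 165 FPKM in irradiated cultures with DL1, where 1 of 9 rose, and to 83.35 to 98.22 FPKM and 144 to 160.5 FPKM without DL1. Erythroid genes, all 9 found, summed to 8.435 to 16.01 FPKM in control and 4.843 to 10.29 FPKM in irradiated cultures with DL1, and B and T cell genes, all 10 found, to 35.39 to 59.41 FPKM and 30.17 to 50.86 FPKM; of these lists 0 of 2 and 0 of 3 tested passed. The part of any of these cells in the values of the transferases was not tested.

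**Figure D2:**
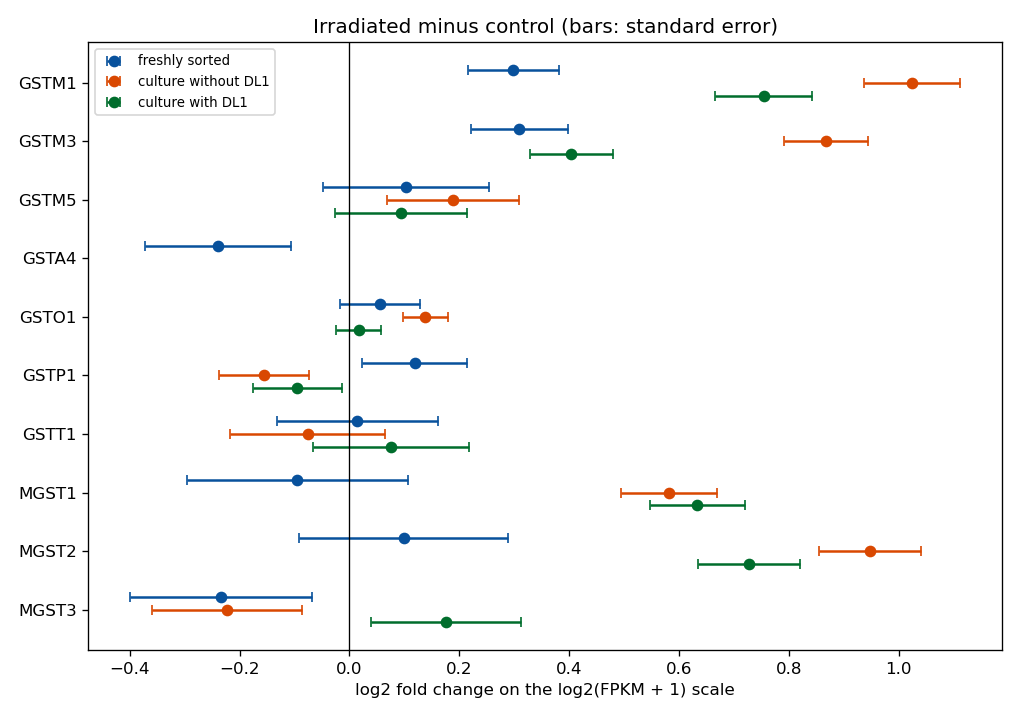
Difference between irradiated and control libraries on the log2(FPKM + 1) scale (horizontal axis) for each transferase, with standard errors, in cultures without DL1, cultures with DL1 and freshly sorted cells. With DL1 the points of GSTM1, MGST2, MGST1 and GSTM3 lie at 0.75, 0.73, 0.63 and 0.40, in fresh cells GSTM1 and GSTM3 lie at 0.30 and 0.31, and GSTA4 has no point in culture, where it was below the filter.

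Freshly sorted cells gave no call for any of the 10 members in limma, with 2 at an unadjusted p below 0.05; of the 12890 genes tested 0.101% were called in either direction (13 genes), 0.0698% higher and 0.031% lower, and 885 had an unadjusted p below 0.05. Mean GSTM1 was 1.23 times its control level (128 ± 3.23 against 104 ± 8.63 FPKM; SD, n = 3 each), a log2 difference of 0.30 with a 95% interval of 0.11 to 0.49 and a limma adjusted p of 0.443. Mean GSTM3 was 1.27 times its control level (10.2 ± 0.71 against 8.01 ± 0.14 FPKM), a log2 difference of 0.31 with an interval of 0.11 to 0.51 and a limma adjusted p of 0.457. These are the 2 members whose irradiated libraries all lay above the control libraries, beside 7.42% of genes, and none lay below, beside 5.28%.

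For the microsomal members the fresh difference was uncertain. The log2 difference of MGST2 was 0.099 (95% interval -0.34 to 0.53) and that of MGST1 was -0.095 (interval -0.55 to 0.36), neither of which passed in limma (adjusted p = 0.974 and 0.977). The MGST2 control libraries spread from 9.97 to 16.8 FPKM and the MGST1 control libraries from 13.0 to 22.5 FPKM. MGST3 was at -0.23 (interval -0.61 to 0.15), GSTA4 at -0.24 (interval -0.54 to 0.065), GSTP1 at 0.12 (interval -0.099 to 0.34), GSTM5 at 0.10 (interval -0.24 to 0.45), GSTO1 at 0.056 (interval -0.11 to 0.22) and GSTT1 at 0.015 (interval -0.32 to 0.35). The median of the 10 was 0.077 against 0.0084 for all genes. The granulocyte list summed to 2733 to 5149 FPKM in control and 2655 to 4528 FPKM in irradiated fresh cells, and 0 of its 11 genes passed. A megakaryocyte list, with 7 of 8 genes found, summed to 53.89 to 82.46 FPKM in control and 95.17 to 158.8 FPKM in irradiated fresh cells, with 0 of 7 tested passing, and its part in the transferase values was not tested.

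GSTM1, GSTM3, GSTM5 and MGST1 fell with DL1, and GSTO1 rose by a small amount. Averaged over control and irradiated cultures with equal weight, a comparison orthogonal to irradiation with and without DL1, the mean with DL1 was 0.499 times the mean without it for GSTM1, 0.463 times for GSTM3, 0.450 times for GSTM5 and 0.549 times for MGST1. The limma log2 differences were -0.95 ± 0.062 (SE, adjusted p = 1.84e-07), -0.92 ± 0.054 (adjusted p = 9.21e-08), -0.78 ± 0.085 (adjusted p = 1.12e-05) and -0.85 ± 0.062 (adjusted p = 3.92e-07) in that order, with 6 libraries on each side. For these 4 every library with DL1 was below every library without it both among control and among irradiated cultures, beside 13.9% of all genes. GSTO1 was 1.11 times as high with DL1, a log2 difference of 0.16 ± 0.029 (SE, adjusted p = 0.000781, limma), and was above in the same sense, beside 18.3% of genes.

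The share of members called was close to that of all genes. Of 9 members 5 were called, 1 higher and 4 lower, beside 51.5% of all genes in either direction, 31.5% higher and 19.9% lower. Of all calls 61.2% were higher as deposited, 47.2% with median-ratio scaling and 52.8% after rescaling without rows like ribosomal or small RNA. MGST2 at -0.11 ± 0.066 (SE, adjusted p = 0.166, limma), GSTP1 at 0.13 ± 0.058 (adjusted p = 0.0831), MGST3 at -0.23 ± 0.097 (adjusted p = 0.0646) and GSTT1 at 0.00094 ± 0.10 (adjusted p = 0.994) did not pass. MGST3 passed with median-ratio scaling (adjusted p = 0.0304) and after the rescaling without ribosomal-like rows (0.0272), and also without irradiated replicate 1 (0.0444), control replicate 2 with DL1 (0.0455) or irradiated replicate 2 with DL1 (0.0489). GSTP1 passed without irradiated replicate 3 (adjusted p = 0.00902, limma) or irradiated replicate 1 with DL1 (0.0397), and with a replicate block among irradiated cultures (0.0178).

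Seen separately and without a test, the DL1 difference of GSTM1 was -0.82 in control and -1.09 in irradiated cultures, and that of GSTM3 was -0.68 and -1.15. MGST1 differed by -0.88 and -0.83, and GSTM5 by -0.73 and -0.83. MGST2 differed by -0.0042 in control cultures and by -0.22 in irradiated cultures, where every library with DL1 lay below every library without it. MGST3 differed by -0.43 in control cultures, where every library with DL1 was likewise below, and by -0.029 in irradiated cultures, with overlap. GSTO1 differed by 0.22 and 0.095, GSTP1 by 0.097 and 0.16 and GSTT1 by -0.075 and 0.077. In control cultures 1 member lay wholly above with DL1 and 5 wholly below, beside 29.4% and 19% of all genes, and in irradiated cultures again 1 above and 5 below, beside 28.7% and 19.7%. All 10 granulocyte genes tested and all 9 macrophage genes tested fell with DL1 in the averaged comparison, and the LSK list, all 10 genes found, summed to 858.6 to 978.8 FPKM with DL1 and 729.3 to 876.2 FPKM without it. Of that list 5 of 8 rose and 2 fell, of mast cell genes 2 of 9 rose and 1 fell, of megakaryocyte genes 1 of 4 rose and 2 fell, of erythroid genes 0 of 2 rose and 2 fell, and of B and T cell genes 2 of 3 rose and 1 fell. All these counts stand beside 31.5% of all genes called higher and 19.9% called lower in the averaged comparison. The part of any of these cells in the fall of the 4 transferases was not tested.

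**Figure D3:**
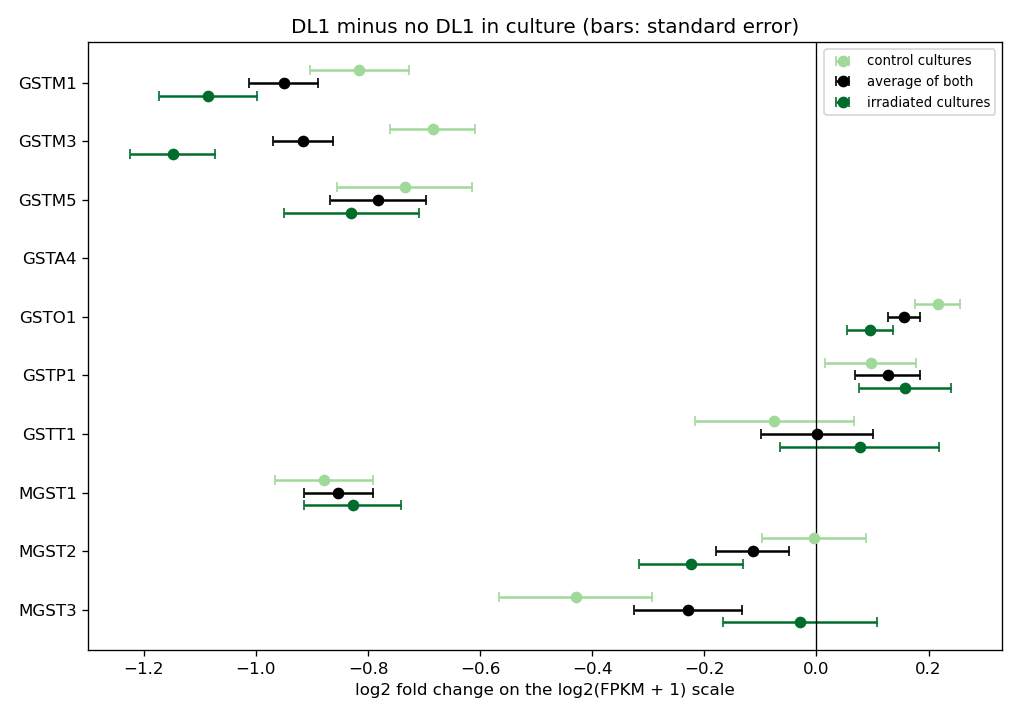
Difference between cultures with and without DL1 on the log2(FPKM + 1) scale (horizontal axis) for each transferase, with standard errors, averaged over control and irradiated cultures and for each separately. GSTM1, GSTM3, GSTM5 and MGST1 lie between -0.68 and -1.15, whereas MGST2 is at -0.0042 in control and -0.22 in irradiated cultures; GSTA4, below the filter, has no point.

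The 10 transferases together summed to 359.6 to 379.9 FPKM in control cultures, 536.7 to 572.1 FPKM in irradiated cultures, 309.9 to 324.5 FPKM in control cultures with DL1 and 380.7 to 414.8 FPKM in irradiated cultures with DL1. The irradiated sums were above the control sums with no overlap, with and without DL1. These sums include GSTM1, GSTM3 and MGST2, which were chosen for rising in culture, so this is a description and supports nothing. GSTM1 made up 25.8 to 31.2% of the sum in control and 38.1 to 41.4% in irradiated cultures, and 18.5 to 19.6% and 25.05 to 26.6% with DL1. In fresh cells the sum was 277.2 to 294.3 FPKM in control and 296.3 to 339.4 FPKM in irradiated libraries, with a GSTM1 share of 34.3 to 38.1% and 38.3 to 41.9%.

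**Figure D4:**
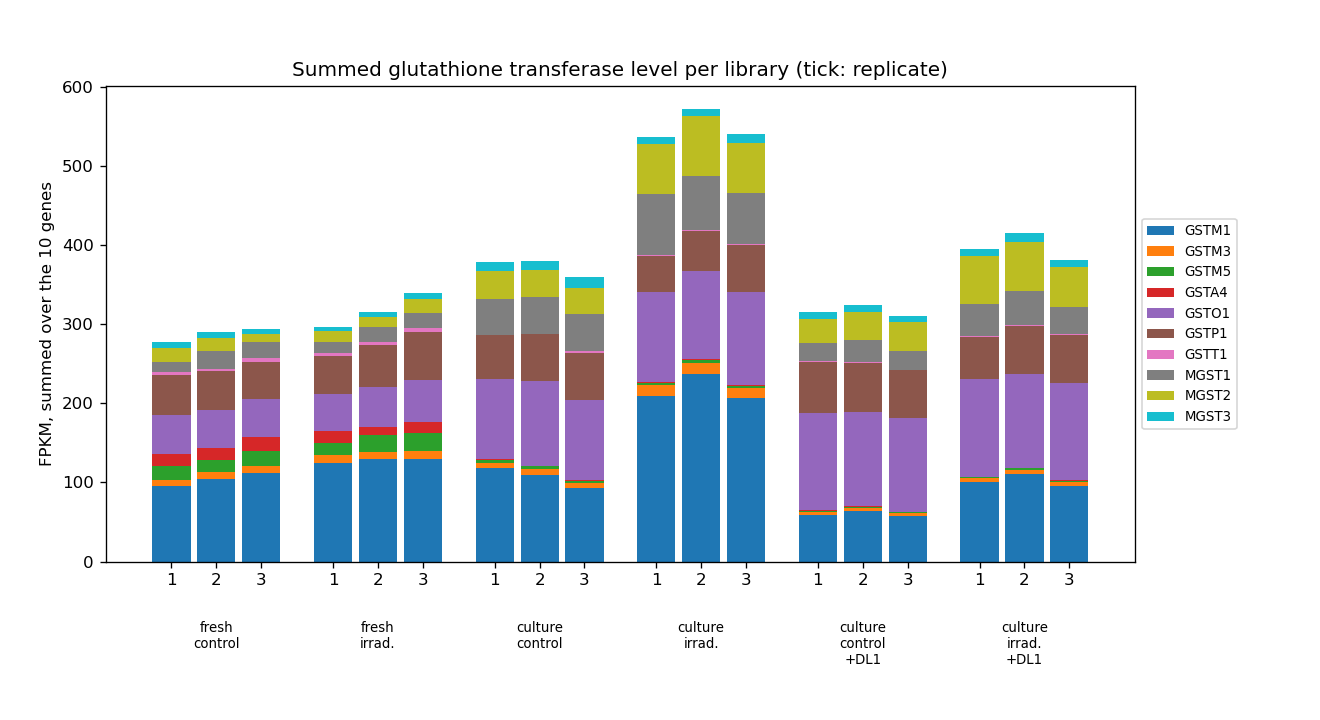
Summed FPKM of the 10 transferases in each of the 18 libraries (vertical axis, stacked bars from 0), with 1 colour for each gene and the libraries ordered by group and replicate. The 3 irradiated cultures without DL1 stand at 536.7 to 572.1 FPKM, above all other libraries, and GSTM1, the lowest part of each bar, is 38.1 to 41.4% of them. GSTM1, GSTM3 and MGST2, part of every bar, were chosen for rising in culture.

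Across the 12 cultured libraries the members fell into different patterns. Pearson's r of log2(FPKM + 1) was 0.976 between GSTM1 and GSTM3, 0.964 between GSTM1 and MGST1 and 0.954 between GSTM3 and MGST1. It was 0.770 between GSTM1 and MGST2 and -0.719 between GSTM1 and GSTP1. These are descriptions over 4 groups of 3 libraries that share their group, so they mainly carry the order of the groups.

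Among all 12010 other genes tested, those whose pattern was most like GSTM1 were ATG12, an autophagy conjugation factor (r = 0.993, Spearman's rho = 0.944), and the granule proteins CTSG (r = 0.988, rho = 0.958) and MPO (r = 0.988, rho = 0.944) of neutrophil precursors. Group means of MPO were 1555 FPKM in control, 2864 FPKM in irradiated, 1051 FPKM in control cultures with DL1 and 1699 FPKM in irradiated cultures with DL1. For GSTM3 the most alike were MCF2L (r = 0.985, rho = 0.965), HK1, a hexokinase (r = 0.985, rho = 0.958), and MARVELD1 (r = 0.982, rho = 0.937). For MGST2 they were the lectin gene CLEC4B2 (r = 0.981, rho = 0.860), LTA4H (r = 0.975, rho = 0.916) and the nuclear body protein SP100 (r = 0.974, rho = 0.888). LTA4H makes leukotriene B4 from the same precursor that MGST2 can use, and its group means were 159 FPKM in control, 233 FPKM in irradiated, 174 FPKM in control cultures with DL1 and 219 FPKM in irradiated cultures with DL1.

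**Figure D5:**
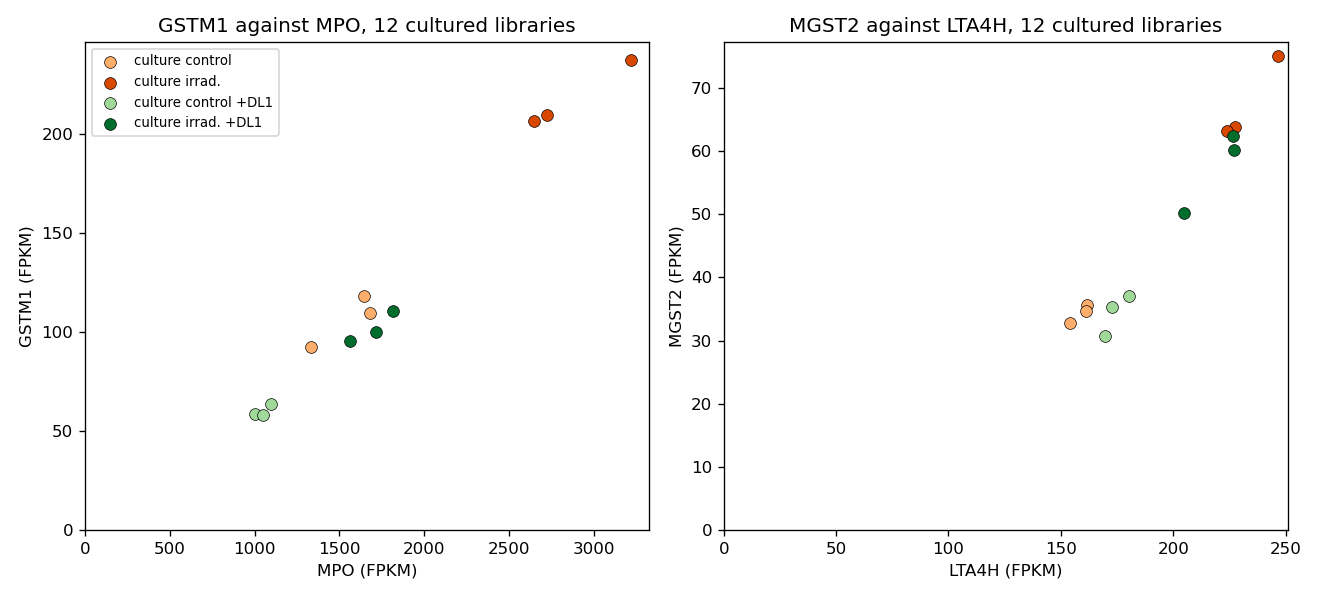
Left, FPKM of GSTM1 (vertical axis) against FPKM of MPO (horizontal axis), and right, FPKM of MGST2 against FPKM of LTA4H, in the 12 cultured libraries (points coloured by group; axes start at 0). For GSTM1 and MPO the 3 irradiated cultures without DL1 stand at the upper right and control cultures with DL1 at the lower left, and for MGST2 and LTA4H both irradiated groups stand above both control groups.

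In gene lists around the transferases, of glutathione metabolism, leukotrienes and Nrf2, 5 genes passed for irradiation in cultures with DL1. All of them were higher, beside 2.51% of all genes called higher and 3.16% called in either direction. Of 9 other transferases tested 0 rose and 0 fell (limma), with 3 at an unadjusted p below 0.05; GSTM4, of the mu class, was at 0.37 ± 0.11 (SE, adjusted p = 0.0877). Of 13 genes of glutathione synthesis and turnover 0 passed, with 3 at an unadjusted p below 0.05, and the glutathione hydrolase GGT1 was at -0.48 ± 0.14 (SE, adjusted p = 0.0866). Among 13 genes of glutathione reduction and peroxidases, the NADPH-producing enzymes PGD (0.21 ± 0.049, adjusted p = 0.0414) and IDH1 (0.29 ± 0.071, adjusted p = 0.0465) rose and 0 fell. Of 9 conjugate exporters ABCC5 alone rose (0.32 ± 0.069, adjusted p = 0.0316). In a list of leukotriene genes 2 of 9 rose in limma. They were LTA4H (0.33 ± 0.054, adjusted p = 0.00795), which makes leukotriene B4 rather than C4, and the dipeptidase DPEP2 (0.72 ± 0.15, adjusted p = 0.0272), which trims leukotriene D4. Of 9 Nrf2 regulators 0 passed in limma and 0 had an unadjusted p below 0.05, with SQSTM1 at 0.099 ± 0.053 (adjusted p = 0.338). LTA4H kept its call without any 1 library, whereas PGD, IDH1, ABCC5 and DPEP2 lost theirs without control replicate 1 (adjusted p = 0.156, 0.184, 0.148 and 0.117, limma) or 3 (0.171, 0.189, 0.123 and 0.118) and without irradiated replicate 1 (0.141, 0.136, 0.0787 and 0.0845) or 2 (0.177, 0.189, 0.136 and 0.125). PGD was also lost without control replicate 2 (0.0761) and ABCC5 without irradiated replicate 3 (0.0617).

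With DL1, averaged over control and irradiated cultures, the same lists moved in both directions, and their counts stand beside 51.5% of all genes called. Of 9 other transferases 3 rose and 2 fell, among them GSTM2 at -0.60 ± 0.093 (SE, adjusted p = 0.000200, limma) and GSTM4 at -0.34 ± 0.075 (adjusted p = 0.00291), both of the mu class, while the prostaglandin D synthase HPGDS rose by 0.46 ± 0.13 (adjusted p = 0.0116) and GSTCD by 0.14 ± 0.040 (adjusted p = 0.0105). Of 13 synthesis and turnover genes 6 rose and 2 fell: the hydrolases GGT1 (0.90 ± 0.096, adjusted p = 9.52e-06) and GGT5 (0.85 ± 0.076, adjusted p = 2.12e-06) rose, and GCLM, the modifier subunit of the rate-limiting ligase (-0.34 ± 0.059, adjusted p = 0.000566), and CTH, which makes cysteine (-0.44 ± 0.080, adjusted p = 0.000667), fell. Of 13 reduction and peroxidase genes 2 rose and 6 fell, with the peroxidase GPX3 at -1.19 ± 0.12 (adjusted p = 8.14e-06, limma), IDH1 at -0.49 ± 0.050, GLRX at -0.40 ± 0.048 and PGD at -0.19 ± 0.035.

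Exporters and leukotriene genes also changed in both directions with DL1, again beside 51.5% of all genes called. Of 9 exporters 4 rose and 3 fell, with ABCC3 at -1.60 ± 0.086 (SE, adjusted p = 5.25e-08, limma) and ABCC4 at -0.63 ± 0.045 (adjusted p = 3.50e-07) lower and ABCB1A at 0.86 ± 0.064 (adjusted p = 5.16e-07) and ABCB1B at 0.31 ± 0.046 (adjusted p = 0.000145) higher. Of 9 leukotriene genes 3 rose and 5 fell. LTC4S, the main leukotriene C4 synthase and a relative of MGST2, rose by 1.56 ± 0.15 (adjusted p = 4.03e-06, limma), from group means of 1.999 and 2.03 FPKM in control and irradiated cultures to 7.70 and 7.95 FPKM with DL1. The dipeptidases DPEP2 (-1.88 ± 0.11) and DPEP3 (-1.15 ± 0.11) and the leukotriene B4 receptor LTB4R1 (-0.81 ± 0.089) fell. Of 9 Nrf2 regulators 1 rose and 4 fell: the repressor BACH1 was at -0.57 ± 0.069 (adjusted p = 3.28e-05, limma), NFE2L2 itself at -0.13 ± 0.034 (adjusted p = 0.00782), and its small Maf partners MAFG at -0.16 ± 0.045 and MAFF at 0.24 ± 0.052.

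In freshly sorted cells none of these 6 lists had a gene past the limma threshold after irradiation, with an unadjusted p below 0.05 for 2 other transferases, 1 exporter and 1 leukotriene gene. The smallest p of the other transferases was that of GSTM7, of the mu class, at 9.34 ± 0.324 against 6.74 ± 0.414 FPKM (SD, n = 3 each), a log2 difference of 0.42 ± 0.089 (SE, adjusted p = 0.253, limma). In the remaining lists the smallest p belonged to GCLM (0.18, adjusted p = 0.814), GPX7 (-0.27, adjusted p = 0.787), ABCB1B (0.28, adjusted p = 0.602), the leukotriene receptor CYSLTR2 (-0.25, adjusted p = 0.670) and NFE2L2 (0.17, adjusted p = 0.758).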

How the data were processed

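The authors deposited 2 tables of FPKM, 1 for 12 cultured and 1 for 6 freshly sorted libraries. Per the submitters' processing notes, TopHat 1.4.1, Cufflinks 1.3.0 and, without a version, Cuffdiff were used; these notes list hg19, a human build, for mouse samples, and the build behind the tables is not settled. Annotation, filters and scaling are not given in the sources used here. Columns were mapped by title, and 0 were left out. The source field of control samples names irradiated marrow, so titles and conditions were used.

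FPKM hold no read counts, so relative depth was estimated from low values (up to 5 reads, tolerance 0.1%). The fits used limma 3.58.1 (R 4.3.3, trended empirical Bayes) on log2(FPKM + 1), for genes with a mean of at least 1 FPKM in their table, with Benjamini-Hochberg adjustment over all of them and a threshold of 0.05. The 12 cultured libraries shared 1 fit and the 6 fresh ones another. Of rows with a repeated name 28 were dropped. The procedure was tested on simulated data. Cultures came from 1 mouse each and fresh libraries from pools of 3 mice; the labels do not say which libraries share mice, so p-values measure the spread between these libraries.

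The members and gene lists were chosen with earlier results of these data known. Irradiation with DL1 was planned as a test for all members; since the choice of GSTM1, GSTM3 and MGST2 does not say which cultures it used, no p is given for them there. Same-numbered irradiated cultures with and without DL1 deviated together (r = 0.235, 0.145 and 0.355), so the numbers may pair them, which the labels do not say. In every comparison all members past the filter are named. In each tested comparison, of each list up to 4 genes with the smallest p that passed are named, or the 1 with the smallest p. Alternatives varied the pseudocount (0.1, 5), the filter (none, 5 FPKM), the scaling, the trend, the replicate block, the groups fitted and each library.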

Additional observations from a re-analysis of the deposited data

Results flagged for a closer look

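GSTT1 moved in opposite directions after irradiation in the 2 kinds of culture: each irradiated library with DL1 lay above the mean of its controls (log2 difference 0.0758) and each without DL1 below it (-0.0764). It was 1 of 40 such checks over members and pairs of comparisons. The difference was not tested, GSTT1 stood near 1 FPKM in culture, and the differences are smaller than their standard error of 0.14.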

How the results depend on the processing

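Irradiation in cultures with DL1 called 380 genes, 222 with no filter (more genes tested), 999 in a fit of the 2 groups alone and 104 to 285 with 1 library left out. MGST1 kept its call under every alternative. The count of members past the threshold was 3 to 4 with 1 library left out and 4 under every other alternative. It includes GSTM1, GSTM3 and MGST2, which may have been chosen for this rise, so it is no support for the set. GSTM3 was the member that did not pass where the count was 3. In fresh cells 13 genes were called, 4 with no filter, 23 after rescaling without ribosomal-like rows and 5 to 15 with 1 library left out, with 0 members throughout. The averaged DL1 comparison called 6183 genes, 5241 to 6924 with 1 library left out, and 5 to 6 members then, 4 with a filter of 5 FPKM and 6 under either rescaling. Where no construction is named, the cause was not tested.

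Directions reversed only for members that did not pass. With 1 library left out, GSTM5 ranged from -0.049 to 0.18 for irradiation with DL1 and from -0.011 to 0.27 in fresh cells, fresh MGST1 from -0.32 to 0.059, fresh MGST2 from -0.13 to 0.22, fresh GSTT1 from -0.14 to 0.099, and GSTT1 for DL1 from -0.076 to 0.035. GSTT1 for DL1 was also at -0.0022 with a pseudocount of 5, at -0.024 with median-ratio scaling and at -0.015 without ribosomal-like rows, where fresh GSTT1 was at -0.0051. The description of GSTM3 without DL1 moved to 0.63 with a pseudocount of 5.

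PGD, IDH1, ABCC5 and DPEP2 lost their calls with no filter (limma adjusted p = 0.0654, 0.0932, 0.0671 and 0.0749), PGD and IDH1 without the trend (0.0597 and 0.0611), and IDH1 with a pseudocount of 5 (0.0537) and without ribosomal-like rows (0.0566). GGT1 passed with a pseudocount of 5 (0.0356) and in the fit of the 2 groups alone (0.0305).

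Same-number deviations correlated at -0.157 to 0.0905 (irradiation with DL1), -0.129 to 0.158 (without DL1), 0.0571 to 0.211 (fresh) and -0.0582 to 0.104 (DL1 in control cultures). In these comparisons not every library matched its own number best. Whether same-numbered control cultures with and without DL1 share a mouse is not given in the labels. For DL1 in irradiated cultures the correlations were 0.145 to 0.355 and all 3 libraries matched their own number best. A replicate block among irradiated cultures alone, chosen after seeing the data, called 6703 genes and 6 members for DL1, GSTP1 being added (adjusted p = 0.0178, limma). With a replicate block 352, 6093 and 9 genes were called for irradiation with DL1, DL1 and fresh cells, with 4, 5 and 0 members, and GSTM4 passed (adjusted p = 0.0261, limma).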

Other observations

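Several transferases outside the 10 also differed in level between the separately normalized fresh and cultured tables, given here without a test. GSTK1, the mitochondrial and peroxisomal kappa transferase, held 11.97 and 11.5 FPKM in fresh control and irradiated cells and 2.37 to 3.36 FPKM as group means in culture. GSTM7 held 6.74 and 9.34 FPKM in fresh cells and 0.226 to 0.276 FPKM as group means in culture. GSTM4 held 7.93 FPKM in control, 11 FPKM in irradiated, 6.19 FPKM in control cultures with DL1 and 8.36 FPKM in irradiated cultures with DL1, the order of groups seen for GSTM3 apart from the middle pair. GSTM2, which shares 9.36% of its 50-base windows with other genes, held 1.74, 3.79, 1.083 and 1.72 FPKM in the same groups.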
